A study of Mus musculus with 12 samples.

Results

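The genes described here are 37 genes of glucose use and the hypoxia response, chosen by symbol from the 54547 genes of the deposited expression table. They cover glucose and lactate transport (4 genes), upper glycolysis (9), lower glycolysis (6), the branch between lactate and pyruvate oxidation (4), the hypoxia-inducible factors with their prolyl hydroxylases (4), and hypoxia-inducible targets (10). All 37 symbols were found and all 37 passed the filter on low values. The libraries, 4 groups of 3, held RNA of cells sorted from the brains of mice (strain 129;C57BL/6 mix). RasV12 GFP+ cells and RasV12 CD11b+ phagocytes came from tumors of mice with the genotype Msi1-CreER;RasV12, in which the tamoxifen-inducible Cre is driven by Musashi-1, a gene of neural stem and progenitor cells. Control GFP+ cells and Control CD11b+ phagocytes came from the cerebellum of mice with the genotype Msi1-CreER;GFP. All 4 groups therefore share the Msi1-CreER allele. RasV12 is an oncogenic form of Ras, and CD11b is an integrin of microglia, macrophages, monocytes and neutrophils. Age, treatment, sort gates and the allele that carries GFP in RasV12 mice were not stated in the labels. Genotype and tissue of origin differ together between RasV12 and Control groups and cannot be told apart. RasV12 in a group's name gives the genotype of the mouse, and expression of RasV12 in the phagocytes themselves was not tested. Below, a RasV12 effect is the difference between RasV12 and Control libraries. Whether the replicates were separate animals is not stated, and p-values therefore reflect the spread among these libraries, part of which may be technical.

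Glycolysis splits glucose into pyruvate, which is either oxidized in mitochondria or reduced to lactate and exported. Several steps have alternative enzyme forms encoded by separate genes, and brain cell types differ in which form they use: Ldha and Ldhb, for example, encode the lactate dehydrogenase subunits often linked to lactate production and lactate use. When oxygen is low, prolyl hydroxylases stop marking the hypoxia-inducible factors (HIF) for degradation. HIF then raises glucose transporters, glycolytic enzymes, pyruvate dehydrogenase kinases and genes of pH control, mitophagy and collagen modification. Oncogenic Ras signalling is also known to raise glucose uptake and glycolytic gene expression in many cell types.

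The libraries differed in ways that touch the genes below. Read totals were 18519240 to 34432725 in GFP+ libraries and 7883870 to 34601205 in Control CD11b+ libraries, but 3642570, 2951629 and 23589310 in RasV12 CD11b+ libraries. Olfactory and vomeronasal receptor genes, which brain cells should hardly express, gave 0.856 to 3.33 normalized counts per kb of exon in GFP+ libraries, 58.3 to 90.3 in RasV12 CD11b+ libraries and 37.4 in Control CD11b+ 2, against 4.60 and 4.70 in the other Control CD11b+ libraries. Mitochondrial genes took 20.1 to 30.4% of normalized counts in Control GFP+ and 1.53 to 2.62% in RasV12 GFP+ libraries, while RasV12 CD11b+ libraries, at 13.3 to 17.7%, were above Control CD11b+ libraries, at 0.630 to 2.54%. The receptor genes' level per kb, applied to every nuclear gene and capped at that gene's own value, would make up 36.4 to 45.7% of the nuclear counts of RasV12 CD11b+ libraries and 2.87 to 28.3% of those of Control CD11b+ libraries. The part of these differences in the CD11b+ results was not tested. The summed level of 6 oligodendrocyte markers was 901141 to 1549070 in Control GFP+ and 1135 to 14969 in RasV12 GFP+ libraries. The sum of 8 neuron markers was 50147 to 71205 against 1970 to 3113, and that of 7 astrocyte markers 138077 to 193015 against 33448 to 87330. No marker of these 3 lists was at 0 throughout either GFP+ group. Control GFP+ cells were therefore rich in mature glial and neuronal RNA by these markers, and the part of that difference in the results below was not tested. Of 11 myeloid markers, Itgam, which encodes CD11b, had no reads in Control GFP+ libraries. Their sum was 203762 to 579025 in phagocytes of Control mice and 62963 to 97546 in those of RasV12 mice. In these bulk samples, fewer cells of a type and less RNA per cell cannot be told apart.

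Values are the authors' normalized counts, which are reads per gene divided by a factor per library, unless a level per transcript length (FPKM) is named. Log2 fold changes are on the log2(normalized count + 1) scale with their standard error (SE), which understates the change of low genes. A gene passed the test when its adjusted p from limma-trend over 29835 genes, with Benjamini-Hochberg adjustment, was below 0.05. In RasV12 GFP+ against Control GFP+ cells, 6 of the 37 genes passed, 2 higher and 4 lower, where 6.79% of all genes tested did (4.14% higher and 2.65% lower). The median log2 fold change was -0.47 over the 37 genes and 0.56 over all genes. In RasV12 CD11b+ against Control CD11b+ cells, 6 passed, 0 higher and 6 lower, where 5.36% of all genes did (2.97% higher and 2.39% lower), with medians of -0.33 and 0.74. On the higher side, 1 gene had a limma-trend p below 0.05 before adjustment, and edgeR called 0 and DESeq2 1 on recovered reads. Slc2a1 and Ldhb were lower in both comparisons. The 2 comparisons set different libraries against each other, but both come from 1 fit to all 12 libraries with a shared estimate of the spread. They are therefore not independent tests. Groups are said not to overlap when every library of one lies above every library of the other, as was so for 28.2% of all genes tested in GFP+ and 27.6% in CD11b+ cells.

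**Figure D1:**
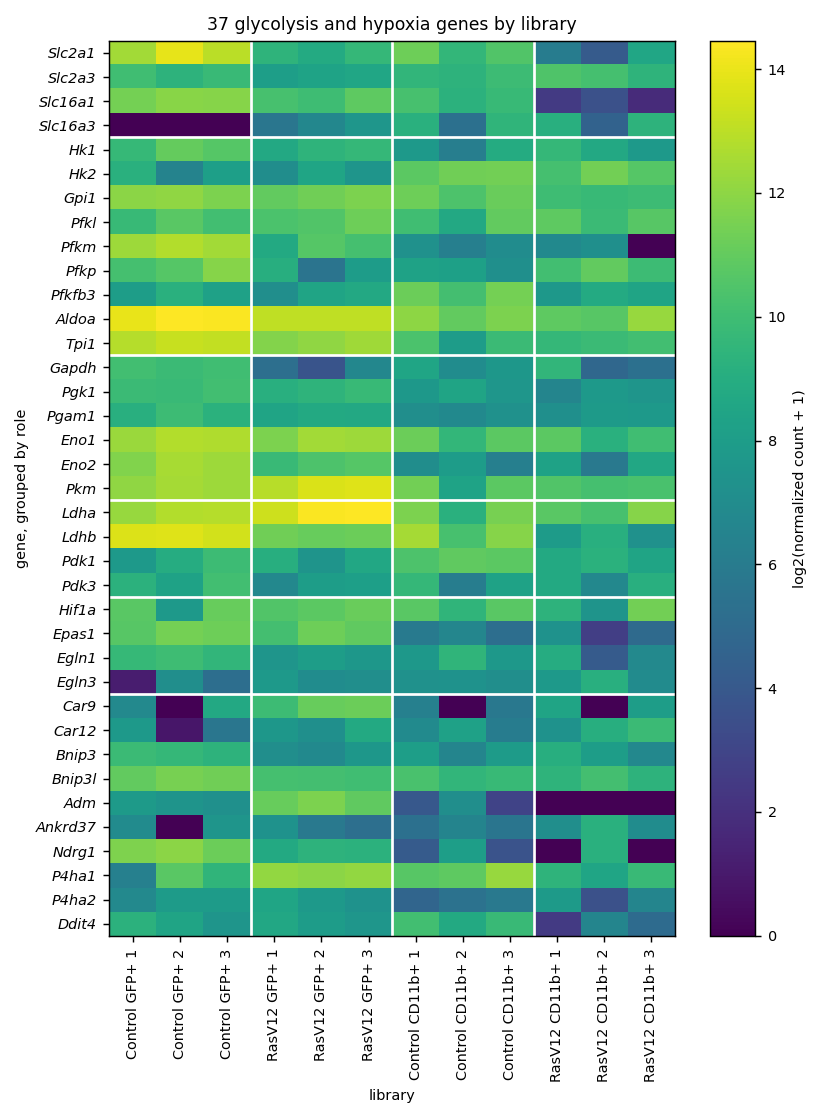
Colour gives log2(normalized count + 1) of each of the 37 genes (rows, grouped by role) in each of the 12 libraries (columns); white lines separate roles and groups. Slc16a3 is at 0 in all 3 Control GFP+ libraries and Adm at 0 in all 3 RasV12 CD11b+ libraries, while Aldoa and Ldhb are the brightest rows of Control GFP+ and Ldha of RasV12 GFP+ libraries.

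The promoters of 4 genes that the results turn on are shown first, since hypoxia-inducible factors bind DNA at a short core, ACGTG. Ldha and Ldhb form the pair whose balance separated Control from RasV12 libraries, and P4ha1 and Slc16a3 were the genes that rose in RasV12 GFP+ cells. Each run is the 250 bases before the RefSeq start in GRCm38.p6, written from 5′ to 3′ on the gene's strand, and capitals mark ACGTG or its complement CACGT. Ldha lies at chr7:46845554-46845803 on the plus strand, Ldhb at chr6:142507958-142508207 on the minus strand, P4ha1 at chr10:59323046-59323295 and Slc16a3 at chr11:120948817-120949066, both on the plus strand.
Ldha: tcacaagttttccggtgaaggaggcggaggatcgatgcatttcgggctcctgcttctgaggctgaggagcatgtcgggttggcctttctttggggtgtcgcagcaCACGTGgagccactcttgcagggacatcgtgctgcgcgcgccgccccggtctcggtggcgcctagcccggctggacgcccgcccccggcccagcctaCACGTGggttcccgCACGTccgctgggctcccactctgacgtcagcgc
Ldhb: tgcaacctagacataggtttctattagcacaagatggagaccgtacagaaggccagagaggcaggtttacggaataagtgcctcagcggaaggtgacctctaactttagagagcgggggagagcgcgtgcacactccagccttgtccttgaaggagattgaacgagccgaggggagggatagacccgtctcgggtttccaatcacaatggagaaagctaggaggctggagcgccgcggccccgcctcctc
P4ha1: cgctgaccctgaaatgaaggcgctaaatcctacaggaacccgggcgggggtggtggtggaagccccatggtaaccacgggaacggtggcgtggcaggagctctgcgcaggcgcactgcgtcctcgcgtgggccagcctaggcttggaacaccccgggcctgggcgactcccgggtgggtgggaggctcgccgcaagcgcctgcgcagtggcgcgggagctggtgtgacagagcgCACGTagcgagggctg
Slc16a3: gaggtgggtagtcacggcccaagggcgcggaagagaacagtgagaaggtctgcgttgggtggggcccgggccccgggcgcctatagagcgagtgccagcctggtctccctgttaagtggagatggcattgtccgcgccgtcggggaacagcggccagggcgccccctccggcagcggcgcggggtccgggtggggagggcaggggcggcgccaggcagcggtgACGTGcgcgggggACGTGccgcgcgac

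The core stood at 3 places in the Ldha window, 2 of which read CACGTG on either strand, at 1 place in that of P4ha1, at 2 places in that of Slc16a3 and nowhere in that of Ldhb. The Slc16a3 window starts from a RefSeq start 587 bases away from the principal GENCODE start. Promoter windows of 300 bases (250 before to 50 after the start) were found for 33 of the 37 genes; Slc2a3, Epas1, Bnip3l and Ndrg1 had none in the table. ACGTG on either strand was in 21 of the 33 windows (63.6%) and in 19.6% of 32851 windows of all genes. The windows printed above were chosen by the results of their genes, and others differed. Of the other genes that fell past the test in RasV12 GFP+ cells, Slc2a1 and Gapdh had the core at 1 place each and Pfkp at 0. Of the other genes that were higher there without overlap, Car9 had it at 1 place and Adm and Pkm at 0. Windows of the 37 genes are rich in G and C, and among 8555 windows within their middle range of GC content (57.3 to 69%) the share was 26.4%. A match of these letters describes the sequence and shows no binding, and the genes were listed partly as known HIF targets.

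Of the transport genes, the main glucose transporter was lower in RasV12 than in Control libraries of both cell types. The lactate exporter Slc16a3 appeared at a low level in RasV12 GFP+ cells. Slc2a1 (ENSMUSG00000028645.11, chromosome 4, 119108711 to 119137983, GRCm38) encodes GLUT1, the glucose transporter of the blood-brain barrier and glia. It stood at 5520, 15688 and 8114 normalized counts in Control GFP+ and at 676.5, 450.6 and 804.0 in RasV12 GFP+ libraries. The highest RasV12 library was below the lowest Control library, and the means differed 15.2-fold (log2 fold change -3.83 ± 0.89 SE, adjusted p = 0.0191). Marker sums of other cell types were lower in RasV12 GFP+ libraries as well. The sum of 5 erythroid markers was 8894, 774410 and 184472 in the Control GFP+ libraries, in the same order as Slc2a1, and 82.9 to 506.8 in RasV12 GFP+ libraries, and 4 of the 5 fell. The sum of 4 choroid plexus markers was 114090, 59121 and 24304 against 18.3 to 96.7, not in the order of Slc2a1, and 2 of the 4 fell. That of 7 endothelial and pericyte markers was 8325, 9680 and 11246 against 5307 to 7860, also not in that order. Of the 7, 3 fell past the test, while 2 had a positive log2 fold change, of at most 1.19, and 0 rose past it. No marker of these 3 lists was at 0 throughout either GFP+ group, and their part in the lower Slc2a1 was not tested. In CD11b+ cells the values were 2454, 769.4 and 1482 in Control and 66.8, 16.6 and 375.4 in RasV12 libraries, again without overlap (10.3-fold lower, log2 fold change -4.20 ± 0.89, adjusted p = 0.0194). In RasV12 CD11b+ libraries 1 and 2 that level was at or below the 273.3 and 316.5 that the receptor genes would give a gene of this exon length, which was not so in library 3.

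Slc2a3 encodes GLUT3, the high-affinity transporter of neurons and of activated myeloid cells. Its values were 1047, 657.6 and 884.1 in Control GFP+, 278.2, 335.3 and 376.2 in RasV12 GFP+, 718.0, 654.1 and 960.7 in Control CD11b+ and 1435, 1163 and 684.6 in RasV12 CD11b+ libraries. Neither RasV12 difference passed the test (log2 fold change -1.37 ± 0.49 in GFP+ cells, adjusted p = 0.124). Within each library, however, Slc2a3 made up more of the 2 transporters' summed FPKM in RasV12 cells: 5.14% ± 3.24 (SD, n = 3) in Control GFP+, 20.5% ± 5.4 in RasV12 GFP+, 21.8% ± 8.6 in Control CD11b+ and 78.5% ± 27.4 in RasV12 CD11b+ libraries. Such a share does not depend on how libraries are scaled. It did not overlap between RasV12 and Control in either cell type; with 3 against 3 libraries, an exact permutation test cannot go below p = 0.1.

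Slc16a3 (ENSMUSG00000025161.16, chromosome 11, 120948480 to 120960868) encodes MCT4, the low-affinity exporter of lactate in glycolytic cells. It had no reads in the 3 Control GFP+ libraries and 49.7, 102.6 and 191.3 normalized counts in RasV12 GFP+ libraries, 824 reads in all. With 3 reads taken as the floor for the control group as a whole, it was at least 149-fold higher (log2 fold change 6.65 ± 1.44, adjusted p = 0.0137), and at least 99.3-fold without RasV12 GFP+ 3. Its level in RasV12 GFP+ libraries was low, at 1.33 ± 0.81 FPKM (SD, n = 3), against 18.5 ± 6.3 for the lactate transporter gene Slc16a1. Slc16a3 made up 6.52% ± 2.58 of the summed FPKM of this pair there. Both CD11b+ groups held Slc16a3, with 587.1, 38.9 and 703.3 in Control and 548.1, 22.2 and 655.2 in RasV12 libraries, and these ranges overlapped. The low value of each group came from its library with the most receptor RNA, Control CD11b+ 2 and RasV12 CD11b+ 2. Of the 11 myeloid markers, 8 had a positive log2 fold change in RasV12 GFP+ against Control GFP+ cells (median 1.34); 0 passed, 5 were at a limma-trend p below 0.05 before adjustment. Their sum in RasV12 GFP+ libraries, 301.9 to 679.7, lay within the range of the Control GFP+ libraries, where it reached 1202. Itgam, Csf1r and Aif1 were at 0 in all Control GFP+ libraries and Tmem119 in all RasV12 GFP+ libraries. The part of myeloid RNA in the Slc16a3 values was not tested.

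Slc16a1 (ENSMUSG00000032902.1, chromosome 3, 104638668 to 104658462) encodes MCT1, a lactate and ketone transporter of wide expression. It was nearly lost from tumor phagocytes, with 4.5, 11.1 and 2.4 normalized counts in RasV12 CD11b+ against 1197, 622.7 and 842.7 in Control CD11b+ libraries. These came from 7 reads in the 3 RasV12 libraries together, and the means differed 147.9-fold (log2 fold change -7.14 ± 0.63, adjusted p = 0.000326). In these RasV12 libraries 1 read was worth at most 5.54 normalized counts, which speaks to counting error only. A loss of molecules before sequencing was not tested. The Slc16a1 level was far under the 258.2 to 399.5 normalized counts that the receptor genes would give a gene of this length, so that estimate is too high for this gene. In GFP+ cells the values were 2740, 3804 and 3706 in Control and 1203, 1002 and 1890 in RasV12 libraries, lower without overlap but not past the test (log2 fold change -1.36 ± 0.63, adjusted p = 0.262). The RasV12 effect differed between the cell types by -5.78 ± 0.89 on the log2 scale (CD11b+ minus GFP+, adjusted p = 0.00371).

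**Figure D2:**
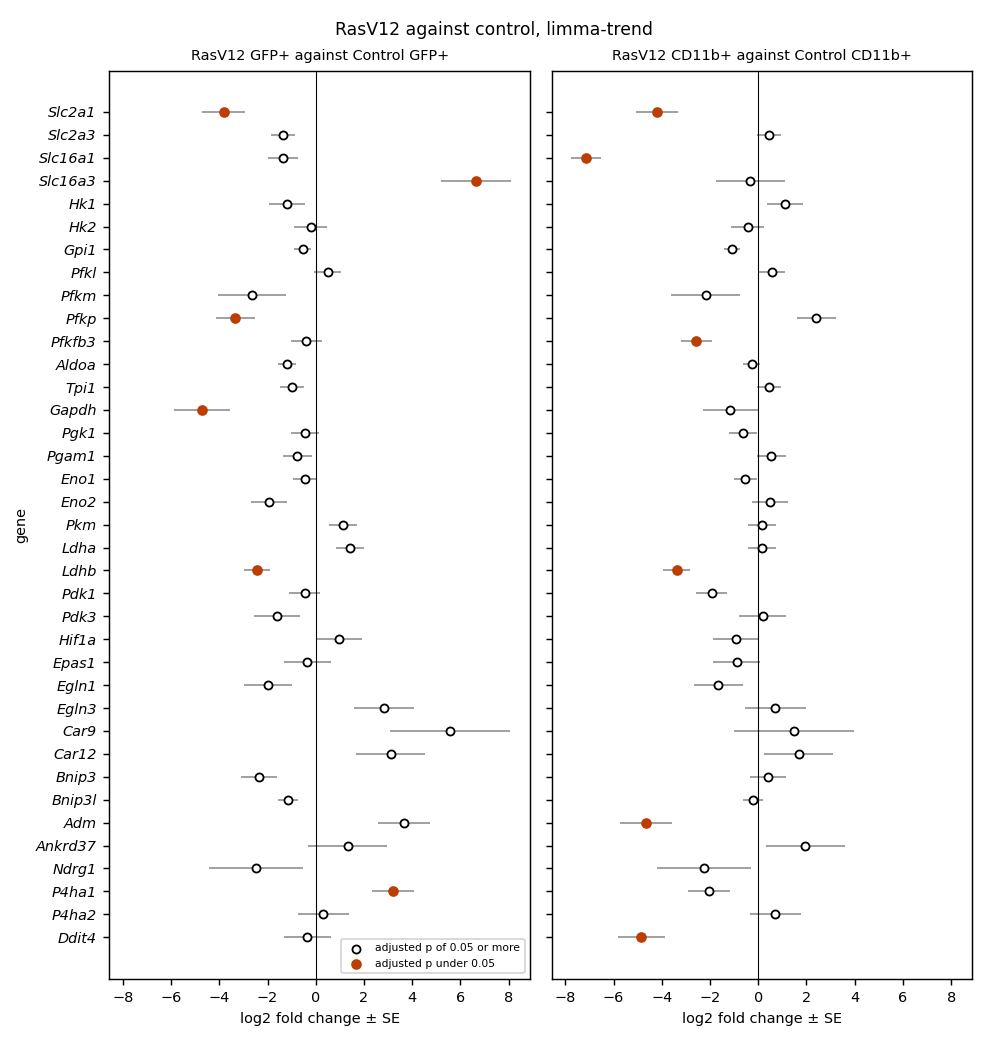
Points give the log2 fold change of each of the 37 genes (rows) for RasV12 against Control in GFP+ cells (left) and CD11b+ cells (right), with bars of 1 SE; filled points had an adjusted p under 0.05. Slc16a3 and P4ha1 are filled to the right of 0 in GFP+ cells, Slc16a1 lies farthest to the left in CD11b+ cells, and 31 of 37 points are open in each panel.

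In upper glycolysis, which takes glucose to triose phosphates, 1 of 9 genes passed in GFP+ cells (Pfkp, lower) and 1 of 9 in CD11b+ cells (Pfkfb3, lower). Aldoa (ENSMUSG00000030695.16, chromosome 7, 126795234 to 126800751), the aldolase of most tissues, had the highest mean normalized count of the role over the 12 libraries. It stood at 16187, 22488 and 21127 in Control GFP+ and at 8761, 8779 and 8473 in RasV12 GFP+ libraries. The groups did not overlap, yet the difference did not pass (log2 fold change -1.19 ± 0.37, adjusted p = 0.0733). In CD11b+ cells it was 4090, 2055 and 3102 in Control and 1867, 1650 and 4754 in RasV12 libraries, with overlap (log2 fold change -0.28 ± 0.37, adjusted p = 0.649).

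Phosphofructokinase, the committed step, has 3 genes, and their balance differed between groups. Pfkp (ENSMUSG00000021196.14, chromosome 13, 6579768 to 6648777), the platelet-type form, fell in RasV12 GFP+ cells from 1147, 1609 and 3616 to 536.5, 46.4 and 251.1 (log2 fold change -3.34 ± 0.81, adjusted p = 0.0250). In CD11b+ cells the values lay in the opposite order, from 318.3, 293.4 and 148.0 in Control to 1065, 1988 and 971.7 in RasV12 libraries, without overlap but not past the test (log2 fold change 2.40 ± 0.81, adjusted p = 0.0933). The 2 effects differed by 5.74 ± 1.15 (adjusted p = 0.0137). RasV12 CD11b+ levels of Pfkp were above the receptor-based estimate in all 3 libraries, but close to it in library 1 (estimates of 1045, 1210 and 781.7).

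The muscle-type form Pfkm held 84.0% ± 4.1 of the summed FPKM of the 3 genes in Control GFP+ and 50.6% ± 16.1 in RasV12 GFP+ libraries, and the liver-type form Pfkl 8.56% ± 1.65 and 44.8% ± 11.5. Neither share overlapped between the groups. In phagocytes Pfkl held most of the sum, 71.4% ± 13.1 in Control and 63.4% ± 18.9 in RasV12 libraries, and Pfkm 17.4% ± 5.6 and 7.34% ± 6.70. Pfkl in normalized counts was 866.5, 1760 and 1102 in Control GFP+ and 1322, 1492 and 2416 in RasV12 GFP+ libraries, and these overlapped, while Pfkm was 5105, 7131 and 5638 against 443.0, 1595 and 1179. The shift in share thus came with a lower Pfkm, 5.56-fold by means and without overlap, that did not pass the test.

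Pfkfb3 (ENSMUSG00000026773.19, chromosome 2, 11471433 to 11554077) encodes the enzyme that makes the activator of phosphofructokinase. It was a gene of the control phagocytes, at 2371, 1109 and 2753 in Control CD11b+ libraries, and fell to 209.4, 459.7 and 350.7 in RasV12 CD11b+ libraries (6.11-fold, log2 fold change -2.58 ± 0.64, adjusted p = 0.0368). The RasV12 values were at or below the receptor-based estimate in all 3 libraries. The hexokinase balance differed more between cell types than between genotypes. Hk2, the inducible form, held 92.9% ± 4.8 and 82.9% ± 13.1 of the summed FPKM of Hk1 and Hk2 in Control and RasV12 CD11b+ libraries, and 25.3% ± 22.6 and 33.7% ± 9.1 in Control and RasV12 GFP+ libraries. Tpi1, the triose phosphate isomerase, was lower without overlap in RasV12 GFP+ (3439, 4258 and 5410) than in Control GFP+ libraries (7368, 9643 and 8907) and did not pass. Hk1, the constitutive hexokinase, was likewise lower without overlap (423.1 to 777.5 against 820.2 to 2120). Hk2, Gpi1, Pfkl and Pfkfb3 overlapped between the GFP+ groups.

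In lower glycolysis, from glyceraldehyde phosphate to pyruvate, 1 of 6 genes passed in GFP+ cells and 0 of 6 in CD11b+ cells, where 0 had a limma-trend p below 0.05 before adjustment and edgeR and DESeq2 called 0. Pkm (ENSMUSG00000032294.17, chromosome 9, 59656368 to 59679375), pyruvate kinase of muscle and tumor types, had the highest mean normalized count of the role over the 12 libraries, although Eno1 was higher in the means of Control GFP+ (6240 against 5105) and Control CD11b+ libraries (1668 against 1588). It was 4315, 5848 and 5152 in Control GFP+ and 7679, 12931 and 13708 in RasV12 GFP+ libraries. It was thus the only gene of glycolysis proper that was higher without overlap, although it did not pass (log2 fold change 1.13 ± 0.58, adjusted p = 0.324). Its 2 splice forms cannot be told apart in a table per gene. In CD11b+ cells it was 2623, 332.3 and 1810 in Control and 1462, 1191 and 1257 in RasV12 libraries (log2 fold change 0.16 ± 0.58, adjusted p = 0.884).

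The balance of the enolase pair differed too. Eno1, the form of most tissues, held 53.1% ± 3.3 of the summed FPKM of Eno1 and Eno2 in Control GFP+ and 75.8% ± 2.1 in RasV12 GFP+ libraries. Eno2, the neuronal form, was 3350, 6162 and 5227 in Control GFP+ and 901.8, 1368 and 1580 in RasV12 GFP+ libraries (log2 fold change -1.93 ± 0.74, adjusted p = 0.157), beside the lower neuron markers given above. Pgk1 and Pgam1, the phosphoglycerate kinase and mutase, were at 561.3 to 866.6 and 344.1 to 444.8 in RasV12 GFP+ and at 873.4 to 1084 and 558.3 to 954.4 in Control GFP+ libraries, lower without overlap.

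Gapdh (ENSMUSG00000057666.18, chromosome 6, 125161715 to 125166467), often used as a reference gene, was at 1066, 918.3 and 1042 in Control GFP+ and at 37.9, 12.6 and 101.2 in RasV12 GFP+ libraries (19.9-fold lower, log2 fold change -4.74 ± 1.16, adjusted p = 0.0256). This value is uncertain. The annotation holds 74 pseudogenes that match Gapdh at 95% identity or more over at least 300 bases, and they took 18.5 to 99.4% of the counts of Gapdh and its copies together. With the copies added, the mean was 1370 in Control GFP+ and 749 in RasV12 GFP+ libraries. Of the 37 genes 11 have such copies, among them Ldha, Ldhb, Pkm, Eno1, Pgk1, Pgam1 and Tpi1. The median share of the copies was 4.56% for Ldhb, 3.83% for Ldha and 9.27% for Pkm. It reached 50.5% for Ldhb in RasV12 CD11b+ 3, and 33.5% for Ldha and 32.5% for Pkm in Control CD11b+ 2.

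**Figure D3:**
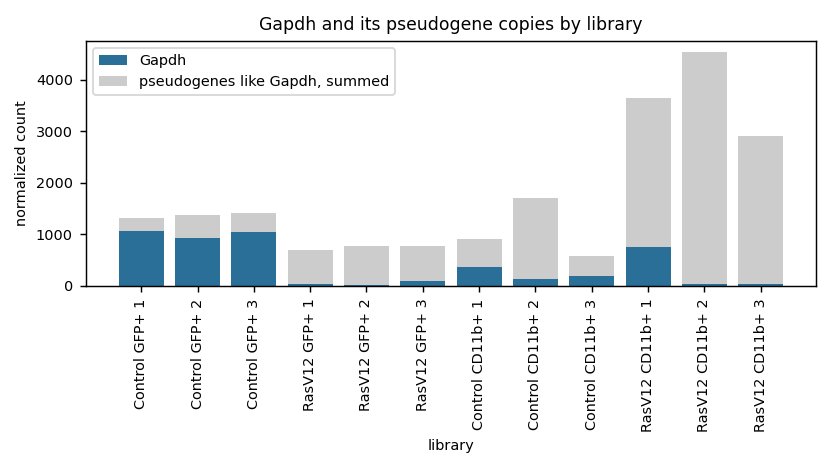
Stacked bars give the normalized count of Gapdh (blue) and the sum of its 74 pseudogenes (grey) in each of the 12 libraries. Pseudogenes take most of the bar in RasV12 GFP+, Control CD11b+ and RasV12 CD11b+ libraries, and the blue part most of it in Control GFP+ libraries.

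At the branch where pyruvate becomes lactate or is oxidized, Ldhb was lower in RasV12 than in Control libraries of both cell types and Ldha was not. Ldhb (ENSMUSG00000030246.11, chromosome 6, 142490249 to 142507957) stood at 13388, 13967 and 11485 in Control GFP+ and at 2573, 2169 and 2383 in RasV12 GFP+ libraries, tight in each group and 5.45-fold apart (log2 fold change -2.44 ± 0.54, adjusted p = 0.0155). In CD11b+ cells it was 5759, 1197 and 3585 in Control and 240.6, 548.3 and 161.0 in RasV12 libraries, 11.1-fold apart (log2 fold change -3.39 ± 0.54, adjusted p = 0.00677). The RasV12 CD11b+ values were above the receptor-based estimate in all 3 libraries. The difference of the 2 effects did not pass.

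Ldha (ENSMUSG00000063229.15, chromosome 7, 46841475 to 46855627) was 4802, 6958 and 7426 in Control GFP+ and 10656, 20887 and 21839 in RasV12 GFP+ libraries. It was higher without overlap, 2.78-fold by means, but did not pass (log2 fold change 1.43 ± 0.58, adjusted p = 0.186). In CD11b+ cells it was 3136, 585.2 and 2837 in Control and 1707, 1202 and 3619 in RasV12 libraries (log2 fold change 0.17 ± 0.58, adjusted p = 0.874). The sign of that last difference turned negative without Control CD11b+ 2 (-0.61).

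Of the shares of alternative genes computed, that of Ldha was the only one that separated every Control from every RasV12 library. Ldha made up 14.5, 19.1 and 23.5% of the summed FPKM of Ldha and Ldhb in Control GFP+ and 66.3, 82.1 and 81.3% in RasV12 GFP+ libraries. It made up 20.5, 18.8 and 27.3% in Control CD11b+ and 77.1, 51.1 and 91.5% in RasV12 CD11b+ libraries. The 6 Control libraries reached at most 27.3% and the 6 RasV12 libraries at least 51.1%, and this ratio within a library is free of the scaling between libraries. The lowest RasV12 share came from the shallowest library, RasV12 CD11b+ 2. Counts of the pseudogene copies of Ldha and Ldhb, given with Gapdh, are not part of these shares. The test of a ratio of 3 against 3 libraries cannot go below an exact p of 0.1, so the shares are given as a description.

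**Figure D4:**
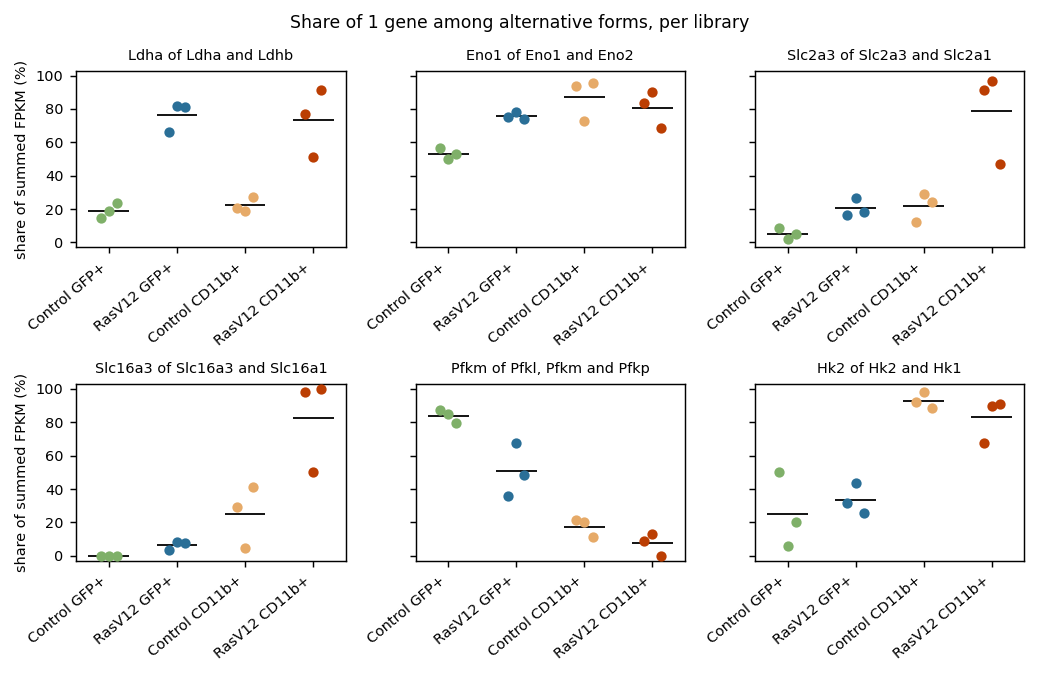
Each panel gives the share (percent) of 1 gene in the summed FPKM of an alternative pair or set, with 1 point per library and a bar at the mean of each group of 3. The share of Ldha lies at 14.5 to 27.3% in the Control libraries and at 51.1 to 91.5% in the RasV12 libraries of both cell types, and that of Hk2 separates the cell types.

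Pdk1 and Pdk3 encode kinases that switch off pyruvate dehydrogenase. Neither passed in a RasV12 comparison. Pdk1 was highest in Control CD11b+ libraries, at 1390, 1979 and 1830, against 436.7, 592.6 and 348.3 in RasV12 CD11b+ libraries (log2 fold change -1.93 ± 0.63, adjusted p = 0.0850). Pdk3 ranged from 68.9 to 1099 over the 12 libraries and overlapped between the groups of CD11b+ cells. In GFP+ cells it was 631.3, 316.8 and 1099 in Control and 104.8, 259.1 and 289.3 in RasV12 libraries, lower without overlap.

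Of the hypoxia-inducible factors and hydroxylases, 0 of 4 passed in either RasV12 comparison, with 1 in GFP+ and 0 in CD11b+ cells at a limma-trend p below 0.05 before adjustment and 0 by edgeR and DESeq2. Hif1a (ENSMUSG00000021109.13, chromosome 12, 73901375 to 73947530), the subunit of most cells, was 1754, 218.9 and 2224 in Control GFP+, 1491, 1832 and 2318 in RasV12 GFP+, 1721, 696.0 and 1710 in Control CD11b+ and 646.2, 177.2 and 2639 in RasV12 CD11b+ libraries, with overlap in both comparisons (log2 fold change 0.96 ± 0.95, adjusted p = 0.697 in GFP+ and -0.92 ± 0.95, adjusted p = 0.552 in CD11b+ cells). HIF is controlled mainly through its protein, which these data do not measure. Epas1, which encodes HIF-2α, stood at 1694 to 2740 in Control GFP+ and 1106 to 2464 in RasV12 GFP+ libraries but at 5.5 to 164.9 in CD11b+ libraries.

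The hydroxylases Egln1 and Egln3 are sensors of oxygen, and both are HIF targets in many cells. Egln1 was 810.1, 1003 and 740.6 in Control GFP+ and 182.9, 262.0 and 200.6 in RasV12 GFP+ libraries, lower without overlap and not past the test. Egln3 was 1.2, 137.9 and 36.6 against 224.4, 128.4 and 140.2, with overlap (log2 fold change 2.83 ± 1.26, adjusted p = 0.236).

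Of 10 HIF targets, 1 rose in RasV12 GFP+ cells (P4ha1) and 2 fell in RasV12 CD11b+ cells (Adm and Ddit4). P4ha1 (ENSMUSG00000019916.14, chromosome 10, 59323296 to 59373304), a collagen prolyl hydroxylase, was 78.4, 1699 and 714.2 in Control GFP+ and 4356, 3908 and 4360 in RasV12 GFP+ libraries. The RasV12 libraries were close to each other and the Control libraries wide apart (5.07-fold by means, log2 fold change 3.20 ± 0.86, adjusted p = 0.0411). In CD11b+ cells it was 1636, 1907 and 4782 in Control and 664.0, 354.4 and 889.4 in RasV12 libraries, lower without overlap but not past the test (log2 fold change -2.05 ± 0.86, adjusted p = 0.155). The RasV12 effects in the 2 cell types differed by -5.25 ± 1.22 (adjusted p = 0.0285).

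Adm (ENSMUSG00000030790.15, chromosome 7, 110627661 to 110629820) encodes adrenomedullin, a vasodilator peptide induced by hypoxia. It was 235.2, 174.8 and 150.6 in Control GFP+ and 2179, 3068 and 1933 in RasV12 GFP+ libraries, 12.8-fold apart by means with small spread in both groups. That difference was just outside the threshold (log2 fold change 3.67 ± 1.08, adjusted p = 0.0601). It passed in 8 of 20 alternatives, edgeR (adjusted p = 0.0403) and DESeq2 (adjusted p = 0.00374) on recovered reads among them. With quantile normalization or with the receptor-based estimate subtracted it did not pass. No read of Adm was found in the 3 RasV12 CD11b+ libraries, against 14.9, 137.7 and 6.5 normalized counts (126 reads in all) in Control CD11b+ libraries. With the same floor of 3 reads, Adm was at least 36.6-fold lower there (log2 fold change -4.67 ± 1.08, adjusted p = 0.0279). The highest of these control values came from Control CD11b+ 2, the control library with most receptor RNA, and without it the bound was at least 7.38-fold, on a control mean of 10.7. The effects differed by -8.34 ± 1.53 (adjusted p = 0.00904).

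Ddit4 (ENSMUSG00000020108.4, chromosome 10, 59949669 to 59951834) encodes REDD1, a stress-induced inhibitor of mTORC1. It fell from 1083, 441.6 and 872.2 in Control CD11b+ to 4.5, 94.1 and 31.8 in RasV12 CD11b+ libraries (18.4-fold, log2 fold change -4.86 ± 0.98, adjusted p = 0.0159) and overlapped in GFP+ cells (618.3, 351.3 and 187.2 against 408.7, 249.4 and 192.4). In all 3 RasV12 CD11b+ libraries Adm and Ddit4 were below the level that the receptor genes would give them, 94.4 to 158.4 normalized counts.

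Car9, the membrane carbonic anhydrase of hypoxic tumors, was 108.7, 0 and 428.3 in Control GFP+ and 975.4, 2214 and 2378 in RasV12 GFP+ libraries. It was 10.4-fold higher by means without overlap but did not pass (log2 fold change 5.58 ± 2.48, adjusted p = 0.236). The SE rests on the spread within all 4 groups, and Car9 also had 0 reads in Control CD11b+ 2 and RasV12 CD11b+ 2. Car12, a related anhydrase, was 217.4, 0.8 and 49.8 against 197.3, 143.9 and 446.0, with overlap (log2 fold change 3.11 ± 1.43, adjusted p = 0.257). Control GFP+ 2 had the lowest value of Car9, Car12 and Ankrd37, a nuclear ankyrin protein, in its group, and the highest of P4ha1. The mitophagy receptors lay in the opposite order. Bnip3 was 917.0, 783.5 and 645.0 in Control GFP+ and 142.7, 117.5 and 202.8 in RasV12 GFP+ libraries (log2 fold change -2.36 ± 0.74, adjusted p = 0.0777), and Bnip3l 2033 to 2918 against 1046 to 1159 (log2 fold change -1.17 ± 0.41, adjusted p = 0.121). Ndrg1, a HIF target that is also a gene of myelinating cells, was 3286, 3914 and 2323 against 438.5, 645.5 and 615.1, lower without overlap beside the lower oligodendrocyte markers. The HIF targets as a list thus held genes that were higher and genes that were lower, with 6 positive and 4 negative log2 fold changes and a median of 0.81.

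Levels can be set against each other only per length. In Control GFP+ libraries the highest mean FPKM of the 37 genes was that of Ldhb (494.6), followed by Aldoa (410.7) and Tpi1 (188.2). In RasV12 GFP+ libraries it was Ldha, at 322.4 ± 112.3, followed by Aldoa at 178.7 ± 3.5 and Pkm at 137.2. Control CD11b+ libraries were led by Ldhb (134.2), Aldoa (63.5) and P4ha1 (40.5), and RasV12 CD11b+ libraries by Aldoa (56.8), Ldha (39.4) and Tpi1 (20.3). The summed FPKM of the 15 glycolytic enzymes of upper and lower glycolysis was 1035 ± 164 in Control GFP+ and 581.2 ± 100.2 in RasV12 GFP+ libraries, without overlap. That of the 10 HIF targets was 132.1 ± 13.4 against 242.3 ± 24.1, without overlap in the opposite direction, and P4ha1 and Adm were among the members that were higher. The summed FPKM of the 4 transporters was 140.2, 325.3 and 196.3 against 30.8, 25.3 and 44.7.

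Counting separation alone, 18 of the 37 genes were lower and 6 higher in RasV12 GFP+ than in Control GFP+ cells with no overlap between the groups, where 10.9% of all genes tested were lower and 17.2% higher in that way. In CD11b+ cells 9 were lower and 2 higher, where 8.59% and 19.0% of all genes were. These counts move with the scaling of the libraries, unlike the shares of paired forms. The 6 that were higher in GFP+ cells were Slc16a3, Pkm, Ldha, Car9, Adm and P4ha1. At an unadjusted p below 0.05 in limma-trend there were 17 of the 37 genes in GFP+ cells, where 19.1% of all genes tested were, and 10 in CD11b+ cells, where 26.5% were.

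Between cell types more genes differed, as did more of all genes. In Control libraries 21 of 37 passed between CD11b+ and GFP+ cells, 4 higher and 17 lower in CD11b+, where 26.2% of all genes did (19.3% higher and 6.91% lower). Higher in phagocytes were Slc16a3 (log2 fold change 7.99, adjusted p = 0.00200), Hk2 (3.23, adjusted p = 0.00496), Pfkfb3 (2.43, adjusted p = 0.0158) and Pdk1 (1.86, adjusted p = 0.0450). The 17 that were lower ran from Bnip3l (-1.42, adjusted p = 0.0243) to Ndrg1 (-6.27, adjusted p = 0.0320). They held 5 of the 6 genes of lower glycolysis, which link triose phosphate to pyruvate. Between tumor cell types 20 of 37 passed, 3 higher and 17 lower in RasV12 CD11b+ than in RasV12 GFP+ cells, where 40.1% of all genes did (29.8% higher and 10.2% lower). Slc2a3 (1.67, adjusted p = 0.0166), Hk2 (3.02, adjusted p = 0.00529) and Pfkp (2.78, adjusted p = 0.0170) were higher. The lower ones ran from Gpi1 (-1.46, adjusted p = 0.00651) to Adm (-11.20, adjusted p = 7.4e-05), which at 0 against 15580 reads was at least 1651-fold lower. These comparisons share the RasV12 GFP+ or Control libraries with the comparisons above.

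The difference of the RasV12 effects passed for 4 of 37 genes, 1 positive and 3 negative, where 4.4% of all genes did (2.06% positive and 2.34% negative). Those were Slc16a1, Adm and P4ha1, with a more negative effect in CD11b+ cells, and Pfkp, with a more positive one. For Slc2a1 and Ldhb, which fell in both cell types, the difference did not pass, which does not show that the effects are equal.

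In RasV12 CD11b+ libraries 1, 2 and 3, 14, 20 and 14 of the 37 genes were at or below the level that the receptor genes would give a gene of their exon length, against 2, 9 and 2 in Control CD11b+, 2, 4 and 1 in Control GFP+ and 0 in every RasV12 GFP+ library. In RasV12 CD11b+ cells 13 genes were above it in all 3 libraries, Ldhb, Ldha, Aldoa, Hk2, Pfkp and Slc2a3 among them. Another 9 were below it in all 3, namely Slc16a1, Pfkm, Pfkfb3, Pdk1, Epas1, Adm, Ndrg1, P4ha2 and Ddit4. Of the 6 genes that fell in RasV12 CD11b+ cells, 4 (Slc16a1, Pfkfb3, Adm and Ddit4) were at or below that estimate in all 3 libraries, Slc2a1 in 2 of 3, and Ldhb in none.

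**Figure D5:**
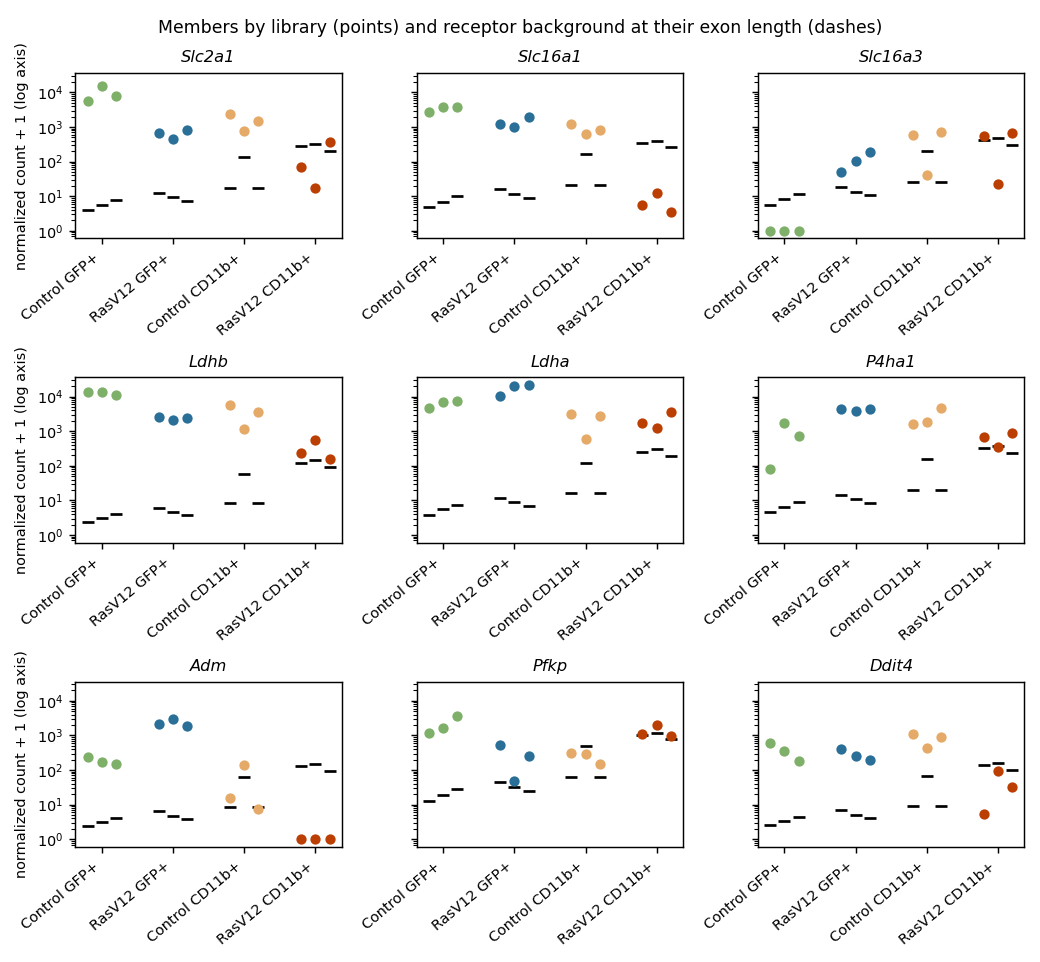
Points give normalized count + 1 (log axis) of 9 genes in each library, by group, and dashes the level that receptor genes would give a gene of that exon length in the same library. Slc16a1, Adm and Ddit4 lie under the dashes in all 3 RasV12 CD11b+ libraries, and Ldhb and Ldha above them.

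The other genes of these pathways were read from a separate list of 67, of which 64 were tested. In RasV12 GFP+ cells 2 rose and 5 fell, with a median log2 fold change of -0.34. Plod2, a collagen lysyl hydroxylase and HIF target, was 131.8, 25.7 and 51.9 in Control GFP+ and 3017, 2382 and 2922 in RasV12 GFP+ libraries (log2 fold change 5.59 ± 1.24, adjusted p = 0.0152). Hmox1, haem oxygenase 1, rose from 193.4 ± 145.7 to 2529 ± 199 (SD, n = 3; log2 fold change 4.23 ± 0.95, adjusted p = 0.0161). Plod2 and P4ha1 both modify collagen. Aldoc, the aldolase of astrocytes and Purkinje cells, fell from 93729, 126886 and 110030 to 2092, 4141 and 4369 (log2 fold change -5.03 ± 0.36, adjusted p = 1.21e-05), beside the lower astrocyte and neuron markers. Bpgm, the bisphosphoglycerate mutase of red blood cells, fell from 3031, 18074 and 8291 to 115.6, 737.8 and 644.5 (log2 fold change -4.33). Its control values lay in the same order as the erythroid marker sums given with Slc2a1, whose part in this difference was not tested. Anln (-4.23), Rora (-2.45) and Mxi1 (-2.21) fell as well.

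Vegfa, the HIF target of blood vessel growth, was not among those that passed, at 1505, 741.8 and 638.9 in Control GFP+ and 2985, 2048 and 2471 in RasV12 GFP+ libraries, higher without overlap (log2 fold change 1.47 ± 0.94, adjusted p = 0.462). It was named after its values were seen. In RasV12 CD11b+ cells 0 of the 64 rose and 7 fell, with a median of -0.48; before adjustment 6 were higher at a limma-trend p below 0.05, and edgeR called 0 and DESeq2 2 higher. Pdk2, another kinase of pyruvate dehydrogenase, fell most, from 437.4, 86.8 and 678.1 to 0, 11.1 and 0 (log2 fold change -7.01 ± 1.05, adjusted p = 0.00516). Slc2a8 (-3.28), Egln2 (-3.02), Plod1 (-2.48), Cited2 (-2.24), Pdhb (-2.10) and Bsg (-1.42) also fell. Bsg encodes basigin, the chaperone that carries MCT1 and MCT4 to the membrane, and was 7513, 2497 and 5392 in Control and 1952, 1274 and 2100 in RasV12 CD11b+ libraries (adjusted p = 0.0486).

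The calls in GFP+ cells were fragile. With edgeR on recovered reads 2 genes passed there, Slc16a3 (adjusted p = 0.0224) and Adm, and Slc2a1, Pfkp, Gapdh, Ldhb and P4ha1 had adjusted p of 0.0502 to 0.134. With quantile normalization or with the receptor-based level subtracted, limma-trend called 0 of the 37. Each of the 6 lost its call when at least 1 library was left out. In those limma-trend fits the adjusted p was at most 0.127, and none of the 6 changed sign. Without RasV12 GFP+ 2 the count fell from 6 to 0, where the other counts were 1 to 4. Over all alternatives the call was kept in 9 of 20 for P4ha1, 11 of 19 for Gapdh and 12 of 20 for Pfkp. It was kept in 13 of 20 for Slc2a1 and for Ldhb, and in 14 of 20 for Slc16a3. In CD11b+ cells the calls of Slc16a1 and Ldhb held whichever library was left out. Both calls were lost in a limma-trend fit of the 6 CD11b+ libraries alone (adjusted p = 0.1175 for each), where 0 genes passed. Slc2a1 and Ddit4 lost theirs without Control CD11b+ 1 or 3, Adm without Control CD11b+ 1, and Pfkfb3 without Control CD11b+ 1 or 3 or RasV12 CD11b+ 1.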

How the data were processed

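RNA of 12 libraries, 4 groups of 3, was isolated with Sepazol, made into cDNA with a SMARTer low-input kit and into libraries with Nextera XT, per the labels' protocols, a route that amplifies little RNA and does not mark strand. The submitters' processing notes name build GRCm38.p6, DESeq2 1.20.0, Subread 1.6.2, featureCounts, HISAT2 2.1.0 and bcl2fastq 2.17.1.14, without saying what each was used for. The authors deposited normalized counts, a signal that equals reads over a library factor, and FPKM values, which also take gene length into account. Whole reads were recovered from the step of each library (at least 99.99% of values whole within 0.05).

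The test covered the 29835 genes that reached 10 normalized counts in 3 or more libraries. It was limma-trend (limma 3.58.1 in R 4.3.3) on log2 values after adding 1, fitted to all 12 libraries with a mean for each group, and p-values were adjusted by Benjamini-Hochberg with a threshold of 0.05. The code was checked on simulated counts with changes built in. In GFP+ cells, CD11b+ cells and the difference of effects, 4.5, 0 and 0% of 4-fold changes were recovered. For 16-fold changes the shares were 25.4, 17.9 and 1.5%, and for 64-fold changes 65, 48 and 17%. False calls were 4, 5 and 3. A gene that did not pass can therefore still differ by several fold. The median SE of 1.37 limits what can be detected. Where a group had no read of a gene, folds were set against 3 reads for the whole group, a floor that covers counting error only. The receptor-based level is the mean normalized count per kb of 1442 olfactory and vomeronasal receptor genes times a gene's exon length (GENCODE annotation of GRCm38, 98.5% of IDs matched). Other settings tried were edgeR 4.0.16 and DESeq2 1.42.0 on recovered reads, FPKM in place of counts, quantile or upper-quartile scaling, changed pseudocounts and filters, array weights, a replicate block, fits to the 6 libraries compared, omission of libraries, and, chosen after seeing the data, subtraction of the receptor-based level. Promoter sequences are from RefSeq (GRCm38.p6).

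Full values are given for genes past the threshold in a RasV12 comparison or in the difference of effects and for the member of each role with the highest mean; other genes are named for comparison. The genes, lists and tests were chosen with earlier results of these data known.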

Additional observations from a re-analysis of the deposited data

Results flagged for a closer look

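The RasV12 effect differed between the 2 cell types for 4 of the 37 genes, by the limma-trend test of the difference itself (CD11b+ minus GFP+, adjusted over 29835 genes). Slc16a1 differed by -5.78 on the log2 scale (adjusted p = 0.00371) and kept its call in 25 of 25 alternatives. Adm differed by -8.34 (adjusted p = 0.00904) and kept its call in 24 of 25, with adjusted p = 0.0530 after subtraction of the receptor-based level. Pfkp differed by 5.74 (adjusted p = 0.0137) and kept its call in 23 of 25, with adjusted p = 0.0759 without the 2 RasV12 CD11b+ libraries under 5000000 reads and 0.260 after subtraction. P4ha1 differed by -5.25 (adjusted p = 0.0285) and kept its call in 16 of 25, with adjusted p of up to 0.139. In GFP+ cells Slc16a1 was lower and Adm and P4ha1 higher in all 3 RasV12 libraries than in any Control library, and in CD11b+ cells Slc16a1, Adm and P4ha1 were lower and Pfkp higher in all 3.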

How the results depend on the processing

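No called gene of the 37 changed sign in any alternative, but 7 of 31 genes not called in GFP+ cells, 20 of 31 in CD11b+ cells and 17 of 33 in the difference of effects did in at least 1. Genes called in RasV12 GFP+ against Control GFP+ cells were 1043 with quantile normalization (514 higher, 529 lower; the median of all genes moved from 0.56 to -0.12), 4097 with array weights, 1122 with edgeR, 4907 with DESeq2 and 1127 with the receptor-based level subtracted; of the 37 genes the counts were 0, 14, 2, 10 and 0, and 13 in a fit of 6 libraries and 10 without libraries under 5000000 reads (main: 6, and 17 at an unadjusted p below 0.05). In RasV12 CD11b+ against Control CD11b+ cells they were 2608 with FPKM, 2421 with quantile normalization (739 higher, 1682 lower), 3542 with a pseudocount of 5 (2438 higher, 1104 lower), 936 with a mean of at least 100 (351 and 585), 3808 with array weights, 434 with edgeR (30 and 404), 2403 with DESeq2, 836 without libraries under 5000000 reads (274 and 562) and 2933 after subtraction (621 and 2312; median -0.55); the fit of 6 libraries called 0 genes and 0 of the 37. Upper-quartile scaling gave 559 higher and 1319 lower. Between RasV12 CD11b+ and RasV12 GFP+ cells they were 6947 with a mean of at least 100, 4692 with edgeR and 5181 without libraries under 5000000 reads, which called 9 of the 37. Between Control CD11b+ and Control GFP+ cells they were 4104 with quantile normalization (9 of the 37), 4613 with edgeR and 3664 after subtraction (10). For the difference of effects they were 3102 with array weights, 3135 with DESeq2 and 2417 after subtraction, with 8 of the 37 under array weights and DESeq2. Leaving out each library gave 1042 to 1762 genes and 0 to 4 of the 37 in GFP+ cells, 373 to 5248 and 2 to 7 in CD11b+ cells (5248 without Control CD11b+ 2), 8118 to 12501 and 15 to 20 between tumor cell types, 5160 to 6491 and 13 to 17 between control cell types, and 578 to 2227 and 3 to 6 for the difference. Libraries with the same replicate number correlated weakly (r of -0.03 to 0.09 over 18 pairs, none over 0.1), and 7 of 12 libraries correlated best with their own number. These values do not settle whether libraries were paired. With a replicate block 1855, 1212, 11785, 7529 and 1173 genes and 6, 6, 21, 20 and 4 of the 37 were called, in the same order of comparisons. Of the genes with full values (called, at an unadjusted p below 0.05, or highest in their role), signs turned for 4, none of them called in that comparison. Hif1a in GFP+ cells ran from -0.0944 (without Control GFP+ 2) to 1.58 with each library left out. In CD11b+ cells, with each library left out, Hif1a ran from -1.90 to 0.0403 (positive without RasV12 CD11b+ 2), Aldoa from -0.76 to 0.0069 (the same), Pkm from -0.75 (without Control CD11b+ 2) to 0.74, and Ldha from -0.61 (without Control CD11b+ 2) to 0.60, with -0.28 without RasV12 CD11b+ 3. Without libraries under 5000000 reads Hif1a was 1.05 and Aldoa 0.68. With upper-quartile scaling, array weights, edgeR and DESeq2, Pkm was -0.47, -0.47, -1.31 and -0.28 and Ldha -0.45, -0.44, -0.87 and -0.0033. Why the values moved was not tested. The 2 shallow RasV12 CD11b+ libraries, where 1 read is worth 4.46 and 5.54 normalized counts, limit what can be seen of low genes.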
